A study of Homo sapiens with 18 samples.

Results

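The mRNAs of the mitochondrial ribosomal proteins were followed in HEK293T, a line of human embryonic kidney cells, under STM2457 and under its solvent. STM2457 is a small molecule that blocks METTL3, the enzyme that places most of the N6-methyladenosine (m6A) found in mRNA. The members are the genes whose symbol is MRPL or MRPS followed by a number and at most 1 letter, and the deposited table holds 73 of them among 8996 genes. The annotation of GENCODE release 29 has 78 protein-coding genes with such symbols; the other 5, MRPL23, MRPL45, MRPS12, MRPS18B and MRPS36, were not analysed here.

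Wild-type cells were given DMSO, the solvent, or STM2457 for 3 h followed by 4-thiouridine (s4U) at 100 µM for 90 min or 180 min, or by no s4U (a dose of STM2457 was not given in the sources used here). Each of the 6 combinations had 3 samples, so that 18 samples were measured, 9 for each treatment. The cells were from 1 line, and the labels do not say whether samples came from separate cultures. In SLAM-seq the s4U taken up into new RNA is read as T-to-C conversions. The share of converted reads over time gives the rate of decay, and a rate of synthesis also needs the abundance of the mRNA.

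The table gives 1 fitted half-life and 1 fitted synthesis rate per gene and treatment, without values for single samples, errors or read counts. Depth is therefore unknown, no mean with an SD can be given, and no difference below could be tested. A gene is called longer-lived or shorter-lived where its half-life in STM2457 was more than 1.5-fold above or below that in DMSO, which is a rule of size and not of significance. The time unit is not named in the table, and hours were inferred because the longest half-life, 69.3, equals ln 2 divided by a decay rate of 0.01. This value is called the ceiling, and a half-life listed there is a lower limit of the fit. Limits and folds given as "at least" below therefore refer to fitted values, which carry no error. The longest time in s4U was shorter than most of the half-lives below. How closely the fit determines such half-lives was not tested. The synthesis rates are given in the table's own units, with a scaling, per length or otherwise, not given in the sources used here. Of 8 marker genes listed for a check of the cells, 5 are in the table, among them NEFL, NEFM and INA, neuronal intermediate filament genes known to be active in this line, and also COL1A1 and CDX2, markers of fibroblasts and of intestine. Synthesis rate times half-life in DMSO, in the table's units, was 3345 for NEFM, 903 for INA and 807 for NEFL, and 393 for CDX2 and 198 for COL1A1.

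Mitochondria have ribosomes of their own, which translate the few mRNAs of the mitochondrial genome, most of them for subunits of the respiratory chain. The RNA of these ribosomes is encoded in mitochondria, whereas all their proteins are encoded in the nucleus, made in the cytosol and imported. A large and a small subunit are built separately; some proteins have counterparts in the bacterial ribosome and others are found in the mitochondrial ribosome alone. The 73 members lie on 21 chromosomes.

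The motif that METTL3 methylates is DRACH, which stands for A, G or T, then A or G, then A, the base that is methylated, then C, then A, C or T. Methylation is known to be sparse close to exon junctions and denser inside long exons. The table has no m6A measurement, and a motif is a sequence match, not a methylated site. For the 4 mRNAs with the highest half-life ratios, and the 4 with the lowest among those with a motif at least 100 nt from a junction, the DRACH motif in the coding sequence that lies farthest from a junction is shown here with 10 bases on either side, the motif in capitals, 5′ to 3′ on the strand of the gene (GENCODE 29 transcripts, GRCh38). The first 4 belong to longer-lived mRNAs and the last 4 to shorter-lived mRNAs.
MRPL46: ggtttgtttcAGACCtctgatgggc
MRPL44: tctttttcacAGACTtgccttacac
MRPS30: gtggcctccaTGACAgccgacagca
MRPS2: ctcctggggcTGACAtgagccattc
MRPL54: ggctgagcaaGAACAagaggttgta
MRPL39: cagttatcatTAACTccccgaactg
MRPL2: gcaagaggccTAACAgtgggcggtg
MRPL22: cttcgcagccGGACCatcgttcaca
These windows lie at chr15:88459608-88459632 (minus strand) for MRPL46, chr2:223959745-223959769 (plus) for MRPL44, chr5:44809104-44809128 (plus) for MRPS30 and chr9:135504102-135504126 (plus) for MRPS2. Those of the shorter-lived mRNAs lie at chr19:3767368-3767392 (plus) for MRPL54, chr21:25606542-25606566 (minus) for MRPL39, chr6:43054368-43054392 (minus) for MRPL2 and chr5:154966865-154966889 (plus) for MRPL22. All 8 are exonic and centred in coding sequence, and the last bases of the MRPL46 window lie past its stop codon. The distance from the motif's A to the nearest junction was 244, 224, 448 and 573 nt in MRPL46, MRPL44, MRPS30 and MRPS2, and 120, 102, 107 and 192 nt in MRPL54, MRPL39, MRPL2 and MRPL22. Each distance in the longer-lived set exceeds each distance in the shorter-lived set, within these 8 mRNAs, which were picked at the extremes of the ratio. This order did not hold over all members. The shorter-lived MRPL16 and MRPS34 have 7 coding motifs each at least 200 nt from a junction, and the longer-lived MRPL19 and MRPL28 have 0 even at 100 nt.

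In DMSO, the mRNAs of the mitochondrial ribosome were long-lived for this table. Their median half-life was 10.8 h (quartiles 6.77 and 16.6 h), against 5.61 h over all genes (quartiles 2.99 and 10.4 h). In STM2457 the members' median was 8.64 h (quartiles 5.63 and 16.9 h), against 5.39 h over all genes. The members' medians lay above those of all genes in both treatments, by more in DMSO.

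Their half-life ratios lay on both sides of 0. Of the 73 mRNAs, 20 (27.4%) were longer-lived, beside 28.5% of all genes, a share near the background. Another 31 (42.5%) were shorter-lived, beside 24.9% of all genes, and 22 stayed within 1.5-fold. The members began from longer half-lives in DMSO, a median of 10.8 h against 5.61 h. Across genes a longer half-life in DMSO went with a lower ratio (Spearman correlation -0.47 in the members, -0.29 over all genes). That half-life is also the denominator of the ratio, and its part in the excess of shorter-lived members was not tested. The median log2 ratio of STM2457 to DMSO was -0.33 (quartiles -0.99 and 0.66), against -0.01 over all genes (quartiles -0.58 and 0.73). With the mean in place of the median, the members' value was -0.18 and that of all genes 0.22. The range ran from -2.88 for MRPL54 to 3.89 for MRPL46. MRPS34, MRPS5 and MRPL37, with ratios of -0.61, -0.62 and -0.62, lay just past the 1.5-fold rule, MRPL48 (0.60) just past it on the other side, and MRPL41, MRPS15 and MRPL51 (-0.48, -0.48 and 0.51) just within it.

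**Figure D1:**
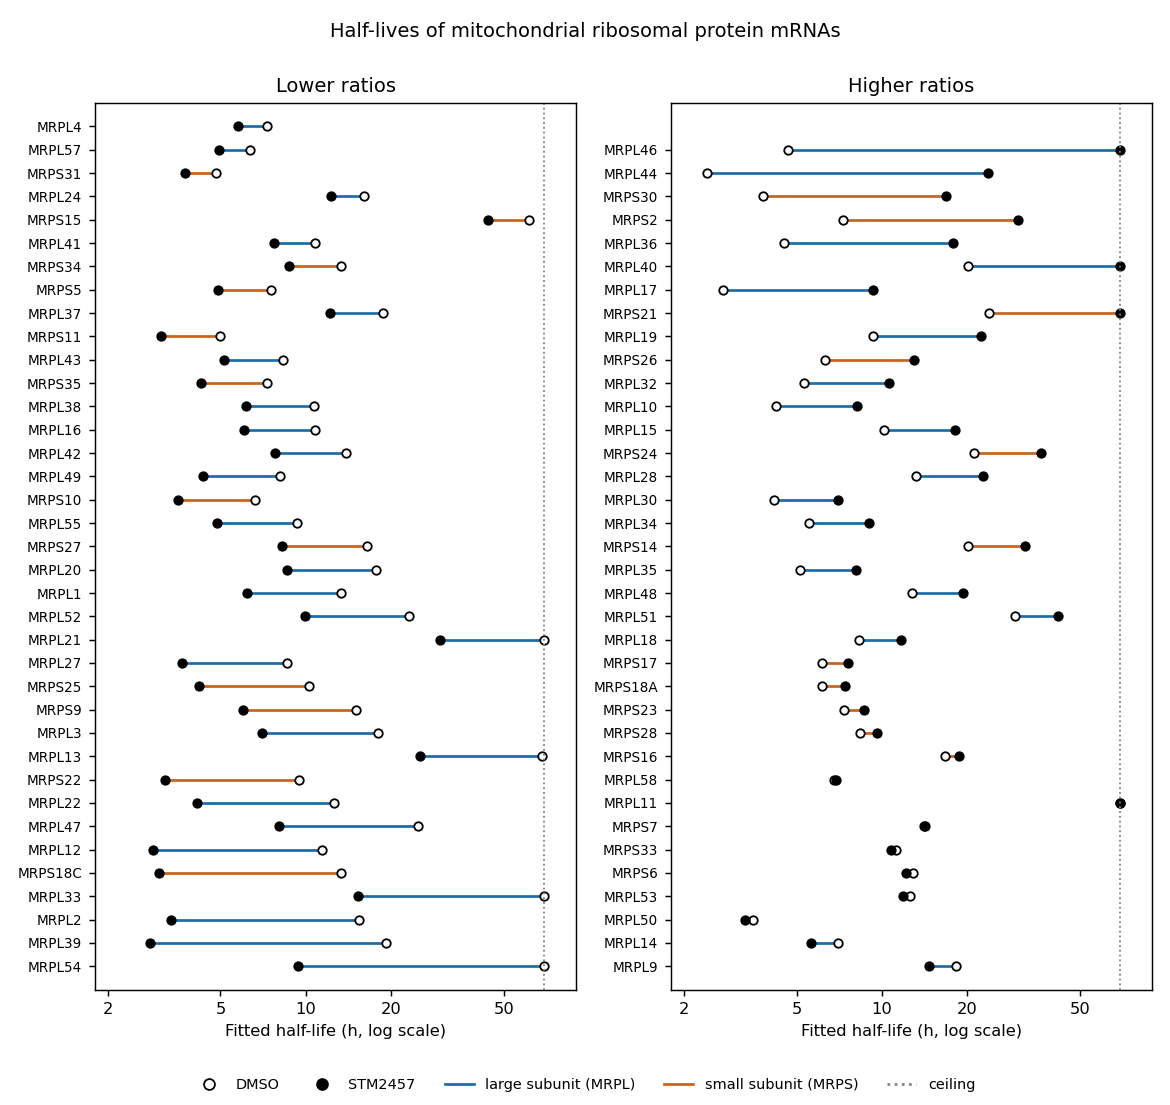
Fitted half-life of each of the 73 mRNAs in DMSO (open circles) and STM2457 (filled circles), in hours on a log scale, ordered by the ratio, with lines coloured by subunit and the ceiling of 69.3 h dotted. No error bars are given because the table holds 1 value per treatment; the lowest ratio is that of MRPL54 (69.3 to 9.41 h) and the highest that of MRPL46 (4.66 to 69.3 h).

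The order of the mRNAs differed between the treatments. Across the 73 members the Spearman correlation between the half-lives in DMSO and STM2457 was 0.33, and over all genes it was 0.65; the points share libraries and a fit, and the value is a description. The shortest half-lives in DMSO were those of MRPL44 (2.42 h), MRPL17 (2.74 h), MRPL50 (3.52 h) and MRPS30 (3.82 h). In STM2457, MRPL44, MRPL17 and MRPS30 were listed at 23.7, 9.31 and 16.9 h, whereas MRPL50, a protein with no bacterial counterpart, was at 3.30 h. The shortest half-lives in STM2457 were those of MRPL39 (2.81 h), MRPL12 (2.88 h), MRPS18C (3.02 h) and MRPS11 (3.09 h), which in DMSO stood at 19.2, 11.4, 13.4 and 4.96 h. No mRNA was among the 4 shortest-lived in both treatments. With 1 value each, how far such orders vary between samples is not known. The longest time in s4U was shorter than the lower quartile of the members' half-lives, 6.77 h in DMSO and 5.63 h in STM2457. Over all genes the lower quartiles were 2.99 h in DMSO and 3.13 h in STM2457. The part of the labelling time in the members' lower correlation and changed order was not tested.

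Fitted at the ceiling, 4 members (MRPL54, MRPL33, MRPL21 and MRPL11) were listed in DMSO and 4 (MRPL46, MRPL40, MRPS21 and MRPL11) in STM2457. Over the whole table, 2.55% of genes reached it in DMSO and 10.9% in STM2457. For MRPL54, MRPL33 and MRPL21 the fold is therefore a lower limit on a fitted decrease. For MRPL46, MRPL40 and MRPS21 it is a lower limit on a fitted increase. MRPL11, at the ceiling in both, has a listed ratio of 0.00 that says nothing about its change.

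Among proteins of the large subunit, the largest differences lay in both directions. MRPL46 is a protein of the central protuberance with a fold related to Nudix hydrolases. It went from 4.66 h in DMSO to 69.3 h in STM2457, at least 14.9-fold longer by the fit. MRPL44, which has a ribonuclease III-like fold and in which mutations are known to cause cardiomyopathy, went from 2.42 to 23.7 h, 9.80-fold longer. In the other direction MRPL54 went from 69.3 to 9.41 h, at least 7.37-fold shorter, and MRPL39, which is related to threonyl-tRNA synthetases, from 19.2 to 2.81 h, 6.82-fold shorter. MRPL39 and MRPL44 thus exchanged places: the former was among the longer-lived mRNAs in DMSO and the latter was the shortest-lived, and in STM2457 MRPL39 had the shortest half-life of all 73.

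The stalk of the large subunit recruits translation factors. MRPL12, its repeated protein, went from 11.4 to 2.88 h (log2 ratio -1.99), while MRPL10, which anchors MRPL12, went from 4.23 to 8.15 h (0.95). MRPL11, at the base of the stalk, was at the ceiling in both treatments, and its fitted synthesis rate was 10.4 in DMSO and 32.5 in STM2457 (log2 ratio 1.64). The 3 mRNAs of this structure gave 1 shorter-lived, 1 longer-lived and 1 undefined change. MRPL12 overlaps AC139530.2 on the same strand, and reads of the pair may not be separable.

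Around the peptide exit tunnel, 3 of the 5 listed proteins had values. MRPL22, which lines the tunnel, went from 12.6 to 4.12 h (log2 ratio -1.61), and MRPL47, near the exit, from 25.0 to 8.02 h (-1.64). MRPL24, also at the exit, went from 16.0 to 12.2 h, within the 1.5-fold rule. All 3 ratios were below 0, with a median of -1.61.

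The central protuberance faces the small subunit at the top of the large one, and its listed proteins split. MRPL46 (3.89), MRPL40 (1.79) and MRPL48 (0.60) were longer-lived on the log2 scale, MRPL38 (-0.80) and MRPL55 (-0.94) were shorter-lived, and MRPL18 (0.50), the counterpart of a protein that binds 5S RNA in bacteria, was within 1.5-fold. The median of these 6 was 0.55. MRPL40 went from 20.1 h to the ceiling, so its ratio is a lower limit. MRPL38, related to phosphatidylethanolamine-binding proteins, went from 10.7 to 6.13 h and overlaps AC087289.3 on the same strand.

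Other large-subunit mRNAs that were strongly shorter-lived include MRPL2, whose bacterial counterpart lies close to the peptidyl transferase centre, which went from 15.4 to 3.34 h. MRPL33 went from 69.3 to 15.3 h, at least 4.53-fold shorter, but it overlaps BABAM2 on the same strand and is uncertain. Longer-lived ones include MRPL36, counterpart of the smallest bacterial large-subunit protein, from 4.53 to 17.8 h, MRPL17, from 2.74 to 9.31 h, and MRPL19, from 9.26 to 22.4 h. MRPL19, with a log2 ratio of 1.27, overlaps AC005034.3 and AC005034.5 on the same strand. MRPL58, a peptidyl-tRNA hydrolase that became part of the ribosome and can release stalled chains, stood at 6.77 h and, with the inhibitor, at 6.86 h (log2 ratio 0.02).

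In the small subunit, MRPS30 and MRPS2 had the highest ratios. MRPS30, named for the small subunit although structures place it in the large one, went from 3.82 to 16.9 h (4.42-fold longer), and MRPS2, a counterpart of bacterial S2, from 7.30 to 30.1 h (4.12-fold). MRPS21 went from 23.8 h to the ceiling, at least 2.91-fold longer, and 8 annotated pseudogenes bear its name, so that reads may have been shared among copies. MRPS18C went from 13.4 to 3.02 h, 4.41-fold shorter, the lowest ratio among small-subunit members. MRPS18A, a relative of MRPS18C that sits in the large subunit, went from 6.14 to 7.39 h, within 1.5-fold. MRPS27, which has an RNA-binding fold of pentatricopeptide repeats, went from 16.4 to 8.27 h (log2 ratio -0.99) and overlaps RN7SL153P on the same strand.

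The ratios of the large and small subunits overlapped over most of their range. Among the 47 mRNAs named for the large subunit, 21 were shorter-lived, 14 longer-lived and 12 in between; their median log2 ratio was -0.36 (quartiles -1.16 and 0.69). Among the 26 named for the small subunit, the counts were 10, 6 and 10, with a median of -0.07 (quartiles -0.75 and 0.30). Shorter-lived and longer-lived shares were 44.7% and 29.8% in the large subunit. In the small one they were 38.5% and 23.1%, beside 24.9% and 28.5% of all genes. The medians differ by -0.29. The difference was -0.11 when MRPS18A and MRPS30 were counted with the large subunit, and 0.0203 over the 59 members whose half-lives both lay between 0.5 and 24 h. In DMSO the medians were 10.8 h for the large and 9.85 h for the small subunit, and in STM2457 8.61 and 8.68 h. By symbol, the 2 highest and the 4 lowest ratios of all belong to the large subunit. MRPS30, which structures place in the large subunit, and MRPS2 follow at the upper end.

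Origin separated the mRNAs no better. The 44 with a bacterial counterpart had a median log2 ratio of -0.32 (14 longer-lived, 18 shorter-lived), and the 29 specific to the mitochondrial ribosome one of -0.37 (6 longer-lived, 13 shorter-lived). Longer-lived and shorter-lived shares were 31.8% and 40.9% in the former. In the latter they were 20.7% and 44.8%, beside 28.5% and 24.9% of all genes. The median half-lives of these classes in DMSO were 12.0 and 10.2 h. The highest and the lowest ratio of all, MRPL46 and MRPL54, both belong to the mitochondrion-specific class.

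**Figure D2:**
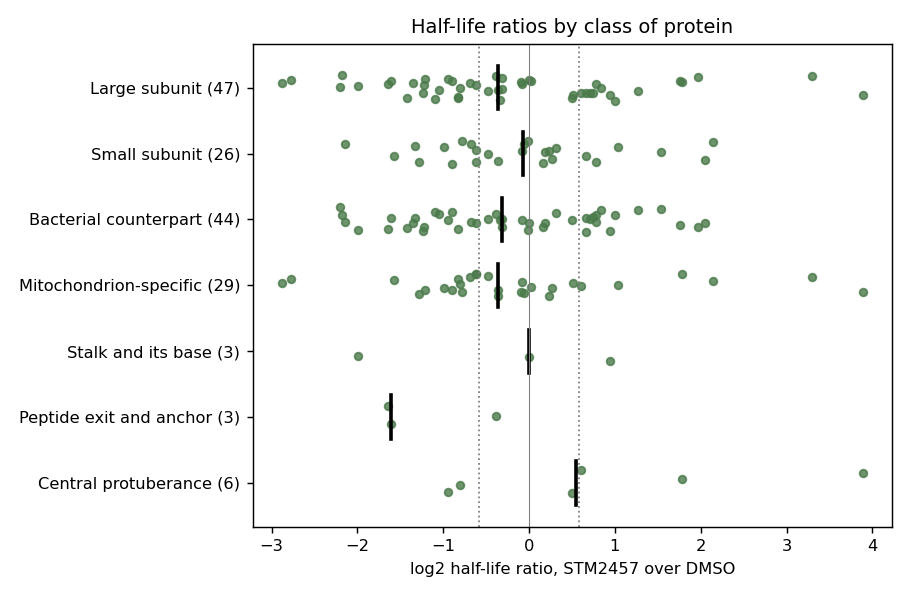
log2 ratio of the half-life in STM2457 to that in DMSO for each mRNA (points, 1 per gene, spread vertically for visibility) by class of protein, with the number of mRNAs in parentheses, the class median as a bar and the 1.5-fold rule dotted. The classes by subunit and by origin overlap over nearly their whole range, with medians of -0.36 and -0.07 for large and small subunits and -0.32 and -0.37 for the classes by origin.

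Fitted synthesis rates were mostly higher in STM2457 than in DMSO. The log2 ratio of STM2457 to DMSO was above 0 in 57 of the 73 members (78.1%), against 45.2% of all genes, and its median was 0.28 (quartiles 0.04 and 0.63), against -0.06 over all genes. Past 1.5-fold, 19 members had a higher rate, where 12.6% of all genes did, and 2 a lower one, where 13.2% of all genes did. The 2 lower ones were MRPS18A, from 121 to 72.0 (log2 ratio -0.75), and MRPL46, from 233 to 152 (-0.62). MRPS31 (-0.42) and MRPL19 (-0.40) came next, within the rule.

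The highest synthesis ratios were those of MRPL54, whose rate was 12.9 in DMSO and 67.7 in STM2457 (log2 ratio 2.39), MRPS15, 22.5 and 101 (2.17), MRPL33, 12.6 and 54.4 (2.11), and MRPL13, 17.0 and 57.4 (1.75). These 4 mRNAs had the listed half-lives in DMSO of 69.3, 61.1, 69.3 and 67.9 h, and they are 4 of the 6 longest-lived mRNAs there, with MRPL21 and MRPL11. In STM2457 their half-lives were 9.41, 43.8, 15.3 and 25.3 h. MRPL21 went from 69.3 to 29.7 h with a synthesis ratio of 1.24. These high synthesis ratios belong to mRNAs whose half-life in DMSO was fitted near or at the ceiling.

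That relation ran through the group. Across the 73 members, the Spearman correlation of the DMSO half-life with the log2 synthesis ratio was 0.73 (0.48 over all genes), and 0.66 across the 66 members away from the ceiling. The half-life ratio and the synthesis ratio had a correlation of -0.41 (-0.35 over all genes). Both rates of a gene come from the same fit to the same libraries, and the half-life in DMSO is also the denominator of the half-life ratio, so the points share their errors and these values are descriptions. The part of a trade-off within the fit in these ratios was not tested. MRPL39 did not follow the relation: its synthesis rates were 23.8 and 26.6, a log2 ratio of 0.16, beside its 6.82-fold shorter half-life.

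**Figure D3:**
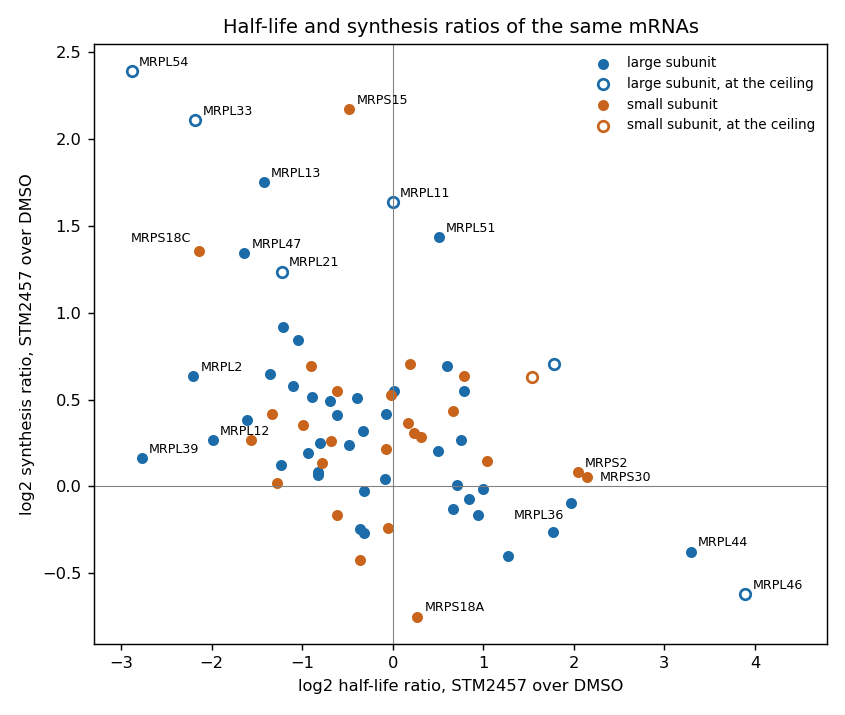
log2 ratio of the fitted synthesis rate (vertical) against log2 ratio of the half-life (horizontal), STM2457 over DMSO, 1 point per mRNA, coloured by subunit, with open symbols for mRNAs at the ceiling in either treatment. Points at the upper left, such as MRPL54 (-2.88 and 2.39), have shorter half-lives with higher synthesis, and MRPL46 (3.89 and -0.62) and MRPL44 (3.29 and -0.37) lie at the lower right.

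The product of synthesis rate and half-life is the abundance that the fit implies at steady state. Its ratio of STM2457 to DMSO had a median of 0.967 among the members and 0.965 over all genes, and ranged from 0.164 for MRPL39 to 9.68 for MRPL46. An upper limit on the change within the experiment can be set, because the cells spent at most 6 h in STM2457: starting from the DMSO steady state, an mRNA made for 6 h at the higher of its rates with no decay at all reaches a bounded level. In 24 of the 73 members the implied abundance exceeded that bound, a share above the 21.9% of all genes. The members with the highest half-life ratios were among them. MRPL46 had an implied 9.68-fold against a bound of 1.89-fold, MRPL44 7.56 against 2.72, MRPL40 5.61 against 1.34, MRPS30 4.59 against 2.13, MRPS2 4.36 against 1.60, MRPL36 3.67 against 1.92 and MRPL17 2.83 against 2.52. For these, the implied level could not have been reached by harvest under either fitted rate. The implied ratio is the half-life ratio times the synthesis ratio. In MRPL46, MRPL44, MRPL36 and MRPL17 the log2 synthesis ratio was below 0, so the implied rise lay in the half-life ratio. The log2 synthesis ratio was 0.05 in MRPS30, 0.08 in MRPS2 and 0.70 in MRPL40. MRPL51, MRPS15 and MRPL11, listed within 1.5-fold in half-life, also exceeded the bound, with log2 synthesis ratios of 1.43, 2.17 and 1.64. Which single fitted value accounts for the excess was not tested. No such limit was set for decreases.

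The mRNAs with DRACH motifs in the coding sequence far from junctions had higher half-life ratios, a direction that turned when only GGACT was counted. Counting DRACH motifs in the longest coding sequence whose A lies at least 100 nt from any junction, 20 members had 0, and of these 12 were shorter-lived and 4 longer-lived, with a median log2 ratio of -0.87; of all genes with 0 motifs, 32.8% were shorter-lived and 22.2% longer-lived. The 31 members with 1 to 3 motifs had a median of -0.39, with 14 shorter-lived and 6 longer-lived, where 31.6% and 20.2% of all genes of that class were. The 20 with 4 to 9 motifs had a median of -0.05, with 5 shorter-lived and 8 longer-lived, where 23.3% and 26.3% of all genes of that class were. MRPS30 with 12 and MRPL44 with 11 motifs were the only members with 10 or more, and had ratios of 2.14 and 3.29. Over all genes with a coding transcript, the medians in the same 4 classes were -0.21, -0.22, -0.03 and 0.47; the members' medians lay below these in the 3 classes with fewer than 10 motifs. Members with at least 1 far DRACH motif had a median 0.78 above that of members with 0; with GGACT in place of DRACH, which 10 members have far from a junction, the difference was -0.30.

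Single mRNAs departed from that order. MRPL16, the counterpart of a core bacterial protein, has 9 far motifs, and went from 10.8 to 6.06 h (log2 ratio -0.83). MRPL37 and MRPS34, with 8 each, were at -0.62 and -0.61, while MRPS2, also with 8, was at 2.04. MRPS21, with 0 in its coding sequence, had the highest ratio without a far motif there, 1.54, at the ceiling. The 3′ untranslated regions were not searched for motifs in any mRNA. Among the extremes of the group, MRPL39 and MRPL54 have 1 far motif each and MRPL46 has 5.

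The Spearman correlation of the half-life ratio across members was 0.40 with the number of far motifs and -0.09 with the number of DRACH motifs at any place in the coding sequence. With the length of the longest coding exon it was 0.42, and with the length of the coding sequence -0.06. With the length of the 3′ untranslated region it was 0.29 (0.06 over all genes). The longer-lived members had a median longest coding exon of 254.5 nt and 3.5 far motifs, and the shorter-lived ones 193 nt and 1 far motif. Of the longer-lived members 50% had 4 or more far motifs, and of the shorter-lived 16.1%. Over all genes the same order was seen, with 59.5% of the longer-lived and 29.8% of the shorter-lived having 4 or more, and median longest coding exons of 405.5 and 225 nt. Since a longer exon has more room for far motifs, exon length and motif number cannot be told apart by these counts. Over all genes the same correlations were 0.26 with far motifs and 0.25 with the longest exon.

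**Figure D4:**
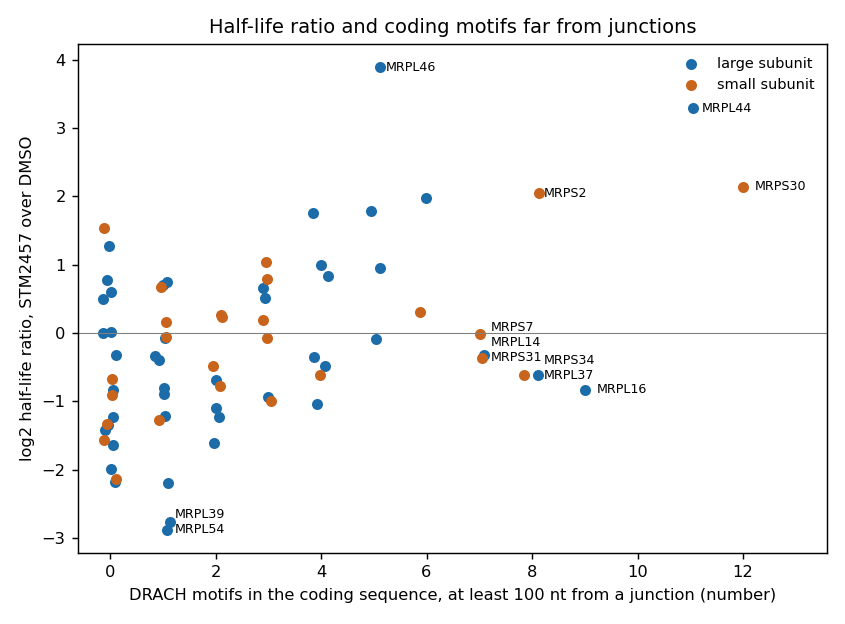
log2 ratio of the half-life in STM2457 to that in DMSO against the number of DRACH motifs in the coding sequence at least 100 nt from an exon junction, 1 point per mRNA, coloured by subunit and shifted slightly sideways where points coincide. MRPS30 and MRPL44, with 12 and 11 motifs, lie above 2, and MRPL16, with 9, lies at -0.83.

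MRPL46 and MRPS11 form a divergent pair on chromosome 15, the only pair of members with start sites within 1 kb on opposite strands. MRPL46 (88459476 to 88467419, minus strand) and MRPS11 (88467453 to 88480773, plus strand) have gene starts 34 nt apart in GENCODE 29. MRPL46 went from 4.66 to 69.3 h and MRPS11, a counterpart of bacterial S11, from 4.96 to 3.09 h, log2 ratios of 3.89 and -0.68. Their half-lives in DMSO were close and those in STM2457 were not. Their synthesis ratios were -0.62 and 0.26. MRPL46 overlaps AC013489.1 on the same strand.

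The promoter window of MRPL46, shown because it reaches into that of MRPS11, is the RefSeq sequence from 250 bases before to 50 after its start (GRCh38.p14, chr15:88467339-88467638, minus strand), with a match to AAGATGGC, the core of the motif of the transcription factor YY1, in capitals.
MRPL46 promoter: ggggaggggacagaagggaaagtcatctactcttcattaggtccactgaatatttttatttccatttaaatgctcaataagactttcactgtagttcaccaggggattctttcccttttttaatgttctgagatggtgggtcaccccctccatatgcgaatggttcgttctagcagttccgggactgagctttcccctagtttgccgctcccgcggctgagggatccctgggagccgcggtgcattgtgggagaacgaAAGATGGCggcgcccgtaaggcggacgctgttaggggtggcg
By RefSeq the starts of the pair are 320 nt apart, the windows of MRPL46 and MRPS11 share 181 nt, and the marked match lies outside the shared stretch; the window of MRPS11 has no match to any motif searched. Promoter windows were matched for 66 of the 73 members and searched on both strands for 4 motifs, which do not contain one another. AAGATGGC was found in 17 of the 66 (25.8%), against 6.69% of the 7053 matched genes of the table and 3.03% of all 27305 windows. CCGGAAG, a core of ETS-family factors, was found in 28 (42.4%), against 21.9% and 10.7%. The NRF1 motif, GCGCA joined to its reverse complement TGCGC, for a factor known for genes of mitochondrial function, was found in 1 (MRPL17, 1.52%), against 2.76% and 1.36%, and CCAAT, for NF-Y, in 19 (28.8%), against 37.7% and 35.7%. Members with CCGGAAG had a median log2 synthesis ratio of 0.55 and those without it 0.20. The corresponding medians were 0.36 and 0.27 for AAGATGGC, and 0.28 and 0.27 for CCAAT. A match is a description of letters, not of binding.

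Other genes of the pathway were described by the same counts. The 5 subunits of the mitochondrial ribosome with other symbols, all in the table, included 4 shorter-lived and 0 longer-lived mRNAs, beside 24.9% and 28.5% of all genes. Their median log2 ratio was -0.63 and their median DMSO half-life 11.3 h, beside -0.33 and 10.8 h for the members. The lowest was AURKAIP1, from 14.0 to 6.60 h (-1.08), and the highest PTCD3, a pentatricopeptide repeat protein, from 2.65 to 2.13 h (-0.31). Of 25 listed genes for assembly of the ribosome and modification of its RNA, 24 had values; 9 (37.5%) were longer-lived and 5 (20.8%) shorter-lived, beside 28.5% and 24.9% of all genes, the median log2 ratio was 0.15, and the median DMSO half-life was 4.22 h, below the 10.8 h of the members. MRM3, a methyltransferase of the large ribosomal RNA, was highest, from 2.61 h to the ceiling (4.73), and MTG1, a GTPase of large-subunit assembly, lowest, from 15.5 to 3.97 h (-1.97), with AL360181.3 overlapping it on the same strand. Synthesis ratios of these assembly genes had a median of -0.23, against 0.28 for the members.

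Of 16 listed translation factors and mRNA-handling proteins of mitochondria, 15 had values, with 4 longer-lived and 3 shorter-lived, beside 28.5% and 24.9% of all genes, and a median log2 ratio of -0.22. TACO1, a translational activator of cytochrome c oxidase subunit 1, was highest, from 5.83 h to the ceiling (3.57), and the initiation factor MTIF2 lowest, from 8.63 to 3.65 h (-1.24). The 13 mRNAs encoded in mitochondria, which these ribosomes translate and which are not made by the nuclear polymerase, had a median half-life of 4.14 h with the solvent, 5.08 h with the inhibitor, a median log2 ratio of 0.34 and a median log2 synthesis ratio of 0.24. The 78 genes matched by symbol as cytosolic ribosomal proteins, paralogues included, had a median half-life at the ceiling in both treatments, with 44 of them there in DMSO and 58 in STM2457, where 4 and 4 of the members were. Their median log2 synthesis ratio was 1.29, and 70 of 78 were past 1.5-fold higher, against 19 of 73 members. The mRNAs of the 2 kinds of ribosome thus lay apart in listed half-life and in synthesis ratio, with no test of the difference possible.

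Counting could blur several of these values. By GENCODE 29, 23 of the 73 members overlap another gene on the same strand and 35 on the opposite strand, and 31 have at least 1 annotated pseudogene named after them. Without the 23, 14 of 50 members were longer-lived and 20 shorter-lived, and the median log2 ratio was -0.35.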

How the data were processed

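SLAM-seq libraries were made from total RNA of HEK293T cells with a 3′ mRNA kit, per the labels' protocols. The genome build GRCh38.p12, the aligner STAR 2.7.8a and FastQC 0.11.9 are named, per the submitters' processing notes. The kinetics tool, annotation, gene filter and libraries in each fit were not given in the sources used here. Per the labels' protocols, 1 library had a lower input and could not be matched to a sample. Per gene, the authors deposited fitted half-lives and synthesis rates, in units that the file headers do not name, and log2 ratios of STM2457 to DMSO, which were recomputed to within 1.27e-14. The depth is unknown, and no test or interval could be made.

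Counts past 1.5-fold, medians, implied abundances and Spearman correlations were computed with Python 3.11.15, pandas 2.3.3, NumPy 2.4.6, SciPy 1.17.1 and Matplotlib 3.10.9, and the scripts were tested on simulated data. GENCODE 29 (GRCh38) matched 8982 of 8996 identifiers without their version and 3241 with it; 8527 genes had a coding transcript, and the longest coding sequence was used, all 73 members included. Promoters came from RefSeq (GRCh38.p14); MRPL2, MRPL10, MRPL13, MRPL15, MRPL21, MRPL35 and MRPS28 had no entry. Names were chosen by rule: MRPL39 and MRPL44, the 8 highest and 8 lowest half-life ratios, mRNAs at the ceiling, the 4 extremes of DMSO half-life and of synthesis ratio, the role lists, the 3 members with the most far motifs, and the extremes of each pathway list; other names were added after their values were seen. Members and lists were chosen with earlier results of these data known. Alternatives changed the size rule, the range, centring, the summary, overlapping genes, the members, the subunit assignment and the motif.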

Additional observations from a re-analysis of the deposited data

How the results depend on the processing

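No paired analysis was possible because the table gives 1 fitted value per gene and treatment, and for the same reason no sample could be left out. With a 2-fold rule, 10 members were longer-lived and 18 shorter-lived, against 20 and 31. The shares of all genes past 2-fold were not computed, so these counts have no background beside them. Without the 23 members that overlap a gene on the same strand, 20 of 50 were shorter-lived, against 31 of 73. The large subunit's median minus the small subunit's was then -0.13 for the log2 half-life ratio, against -0.29, and 0.27 for the log2 DMSO half-life, against 0.14. With both half-lives between 0.5 and 24 h, 59 members remained, their median DMSO half-life was 9.33 h against 10.8 h, and the difference between subunits in half-life ratio turned to 0.0203. That difference was -0.0348 with the subunits of other symbols added, -0.13 with means, and -0.11 by place in the ribosome, where the DMSO difference was 0.00627. Means in place of medians gave -0.18 for the half-life ratio and 0.40 for the synthesis ratio. Members with far DRACH motifs exceeded those without by 0.78 in median log2 half-life ratio; with GGACT, found far from a junction in 10 members, the difference turned to -0.30. At any distance all 73 members have a DRACH motif, so that alternative could not be run. A stricter size rule or a smaller set of members lowers a count by itself. In the other turned and moved cases the cause was not tested. The remaining 29 values kept their direction and moved by at most 0.1 on the log2 scale or, for counts, 1.5 times. Among them were the motif difference at 50 and 200 nt and both counts after centring on all genes. Centring shifted each ratio only by the all-gene median of -0.005, so those counts could hardly have moved. The direction of the difference between subunits therefore depends on the range of half-lives kept, and the motif difference on the motif. Unknown depth and missing replicates limit every value.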
